A study of Mus musculus with 196 samples.

Results

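The cytochrome P450 genes are the genes whose symbol starts with Cyp and a digit, leaving out Cyp51, which belongs to cholesterol synthesis. They were 87 of the 18820 genes measured by probe sets that name a single gene, and 9 further probe sets that name several genes, a P450 among them, were not used. P450s are haem enzymes that insert oxygen into lipids and foreign compounds, and most sit in the endoplasmic reticulum and take electrons from a shared reductase. In skin they are known for breaking down retinoic acid and vitamin D, for making the long acylceramides of the epidermal barrier, for local steroid metabolism and for handling compounds from the environment. Many lie in clusters of near-identical copies, so signals of the Cyp2b, Cyp2c, Cyp2d, Cyp2j, Cyp3a, Cyp4a and Cyp4f probe sets may include cross-hybridisation from relatives.

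The series holds 97 arrays of tail skin, 14 of anagen back skin, in which hair was growing, and 85 of non-anagen back skin. All came from 100 untreated backcross mice aged 8 weeks, and the back was shaved. Mus spretus males had been crossed to FVB/N females and the F1 daughters to FVB/N males, so each mouse carries its own mixture of alleles. There were 48 females and 49 males among the tails, 8 females and 6 males in anagen back, and 41 females and 44 males in non-anagen back. Values are log2 expression after RMA (robust multi-array average) and were not filtered.

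Each array read whole skin. The mean of 8 inner root sheath genes, which mark growing hair, ranged from 6.71 to 11.92 in anagen back and from 5.46 to 6.75 in non-anagen back, so 1 anagen array lay within the non-anagen range. The mean of 7 hepatocyte genes ranged from 4.31 to 6.06 in tail, from 4.65 to 6.01 in anagen back and from 4.49 to 6.89 in non-anagen back. Of the 87 P450 genes, 25 had a mean over all arrays above 6.49, the median of all gene means, and 62 did not. Probe sets differ in background, so a low value is not a test of absence, and levels are compared only within a gene.

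Several P450 genes varied together across mice, as described further on, among them Cyp2b23, Cyp2j12, Cyp3a57 and Cyp1a1. The 250 bases before the start sites of these genes are shown. Cyp3a25, Cyp2b10 and Cyp20a1 also varied with Cyp2b23 or Cyp3a57 and are not printed, so the windows do not stand for the whole group. Any link between the marked motifs and the shared variation was not tested. Capitals mark AGGTCA or its reverse complement TGACCT, a core that many nuclear receptors bind, and GCGTG or its reverse complement CACGC, the core bound by the aryl hydrocarbon receptor. All are given 5′ to 3′ on the gene's own strand, from RefSeq on build GRCm38.p6.
Cyp2b23 (chr7:26686431-26686680, minus strand): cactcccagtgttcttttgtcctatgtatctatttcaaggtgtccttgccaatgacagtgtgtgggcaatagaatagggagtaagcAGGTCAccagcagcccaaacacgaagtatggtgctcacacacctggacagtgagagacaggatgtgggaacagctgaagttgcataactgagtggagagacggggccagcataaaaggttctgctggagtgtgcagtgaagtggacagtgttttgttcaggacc
Cyp2j12 (chr4:96141153-96141402, minus strand): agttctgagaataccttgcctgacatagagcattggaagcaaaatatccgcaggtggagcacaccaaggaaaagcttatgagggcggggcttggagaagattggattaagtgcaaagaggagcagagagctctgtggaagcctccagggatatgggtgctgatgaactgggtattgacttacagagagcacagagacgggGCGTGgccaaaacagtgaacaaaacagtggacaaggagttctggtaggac
Cyp3a57 (chr5:145345019-145345268, plus strand): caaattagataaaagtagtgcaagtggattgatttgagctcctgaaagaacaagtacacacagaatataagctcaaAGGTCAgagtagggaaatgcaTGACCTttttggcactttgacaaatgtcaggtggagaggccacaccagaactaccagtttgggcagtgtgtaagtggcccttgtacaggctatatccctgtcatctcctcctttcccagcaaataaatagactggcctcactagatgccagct
Cyp1a1 (chr9:57697363-57697612, plus strand): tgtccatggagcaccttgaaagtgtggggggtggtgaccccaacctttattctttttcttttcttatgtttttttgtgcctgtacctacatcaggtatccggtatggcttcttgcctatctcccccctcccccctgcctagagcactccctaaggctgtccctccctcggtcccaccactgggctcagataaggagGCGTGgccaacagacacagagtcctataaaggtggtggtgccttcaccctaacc
The Cyp2b23 window holds AGGTCA starting 164 bases before the start site. The Cyp3a57 window holds AGGTCA at 174 bases and TGACCT at 153 bases before it. GCGTG stands 50 bases before the start of Cyp2j12 and 54 bases before that of Cyp1a1. AGGTCA on either strand occurs in 14% of the 32851 promoter windows of this length in the table and in 16 of the 72 windows (22.2%) listed for 64 of the P450 genes. GCGTG on either strand occurs in 28.2% of all windows and in 15 of these 72 (20.8%). No window was listed for Cyp2g1 or Cyp17a1.

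Tail skin differed from non-anagen back skin in 6 P450 genes by at least 2-fold. Cyp2f2 and Cyp17a1 were higher in tail, and Cyp4f37, Cyp2e1, Cyp2g1 and Cyp27a1 were lower. In limma's fit with sex as a covariate, at an adjusted p under 0.05 and a log2 difference of at least 1, 2 and 4 of the 87 were called higher and lower, against 3.94% and 2.02% of all genes (5.97% in either direction). With arrays of back batch 1 and tail batch 4 alone, again 2 were called higher and 4 lower, and the 6 differences lay between -1.99 (Cyp4f37) and 1.76 (Cyp2f2). After shifting every array to the same median, 489 of all genes were called higher and 620 lower, where the unshifted counts were 742 and 381, and 2 P450 genes were higher and 5 lower. Batch and tissue cannot be told apart, since back arrays were in batches 1 and 2 and tail arrays in batches 3 and 4. In bulk skin, fewer cells of a type and less RNA per cell cannot be told apart either.

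Cyp27a1 (probe set 10347481, chromosome 1), a mitochondrial sterol hydroxylase, was at 6.09, 7.03 and 7.57 (lowest, median and highest) in tail and at 7.65, 8.47 and 9.28 in non-anagen back. No tail array reached the lowest back array. The means were 7.003 ± 0.246 (SD, n = 97) in tail and 8.446 ± 0.295 (SD, n = 85) in back, a difference of -1.44 (SE 0.04, adjusted p = 1.68e-83). It was the only P450 gene whose arrays did not overlap, against 0.478% of all genes with every tail array lower and 1.42% with every tail array higher.

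Cyp17a1 (probe set 10468239, chromosome 19), which makes the precursors of androgens, was at 7.95, 9.27 and 9.93 in tail and at 5.52, 7.55 and 9.41 in non-anagen back (lowest, median and highest). Of the tail arrays 40 lay above every back array, and none lay below. The difference was 1.72 (SE 0.08, adjusted p = 1.04e-53), or 3.29-fold. Cyp11a1, which cuts the side chain of cholesterol at the start of steroid synthesis, differed by 0.89 (SE 0.07, adjusted p = 1.61e-24), short of the size limit.

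Of the 11 steroid and bile acid genes measured, these among them, 5 were higher and 5 lower when the size limit was dropped, set beside 43.8% and 43.5% of all genes (87.3% in either direction). The oxysterol hydroxylase Cyp39a1 differed by -0.52, Cyp7a1, the rate-limiting enzyme of bile acid synthesis in liver, by -0.35 and Cyp11b1, which makes glucocorticoids in the adrenal gland, by -0.29. Cyp7b1 and Cyp8b1 were higher by 0.24 and 0.40, Cyp46a1 by 0.11, and Cyp21a1 was lower (-0.09). Cyp11b2 differed by 0.01 (adjusted p = 0.846).

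The 12 measured Cyp2 genes of the chromosome 7 cluster did not move as a block. In RefSeq order they run Cyp2s1, Cyp2b10, Cyp2b13, Cyp2b9, Cyp2b23, Cyp2b19, Cyp2g1, Cyp2a5, Cyp2a22, Cyp2a12, Cyp2f2 and Cyp2t4. Their tail minus back differences, in that order, were 0.51, -0.42, -0.54, -0.32, -0.18, 0.87, -1.53, 0.48, -0.39, -0.26, 1.80 and -0.25. Neighbours thus took opposite signs, with Cyp2g1 lower between Cyp2b19 and Cyp2a5, both higher. All passed at any size except Cyp2b23 (limma's adjusted p = 0.154), whose difference is pooled over sexes that moved in opposite directions. Its means in tail and non-anagen back were 8.79 and 8.32 in females, and 9.13 and 9.93 in males.

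Cyp2f2 (probe set 10551293), which activates naphthalene in mouse lung, was at 10.08, 11.50 and 12.24 in tail and at 7.79, 9.62 and 11.18 in non-anagen back (lowest, median and highest). Of the tail arrays 65 lay above every back array. The fold was 3.47 (SE of the log2 difference 0.09, adjusted p = 6.97e-48). Cyp2b19 (probe set 10551264), the arachidonic acid epoxygenase of mouse keratinocytes, was at 10.96, 11.59 and 11.99 in tail and at 9.77, 10.69 and 11.55 in back. It was 1.82-fold higher (adjusted p = 5.6e-46), and 51 tail arrays lay above every back array.

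Cyp2g1 (probe set 10551273), known from the olfactory mucosa of rodents, varied widely between arrays, with SDs of 1.85 in tail, 1.72 in anagen back and 2.57 in non-anagen back over both sexes. Its lowest, median and highest values were 4.16, 7.39 and 11.08 in tail and 4.24, 8.48 and 12.81 in non-anagen back. The groups overlapped widely, and the mean difference was -1.53 (SE 0.18, adjusted p = 4e-14). Its values in females and males are given further on.

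**Figure D1:**
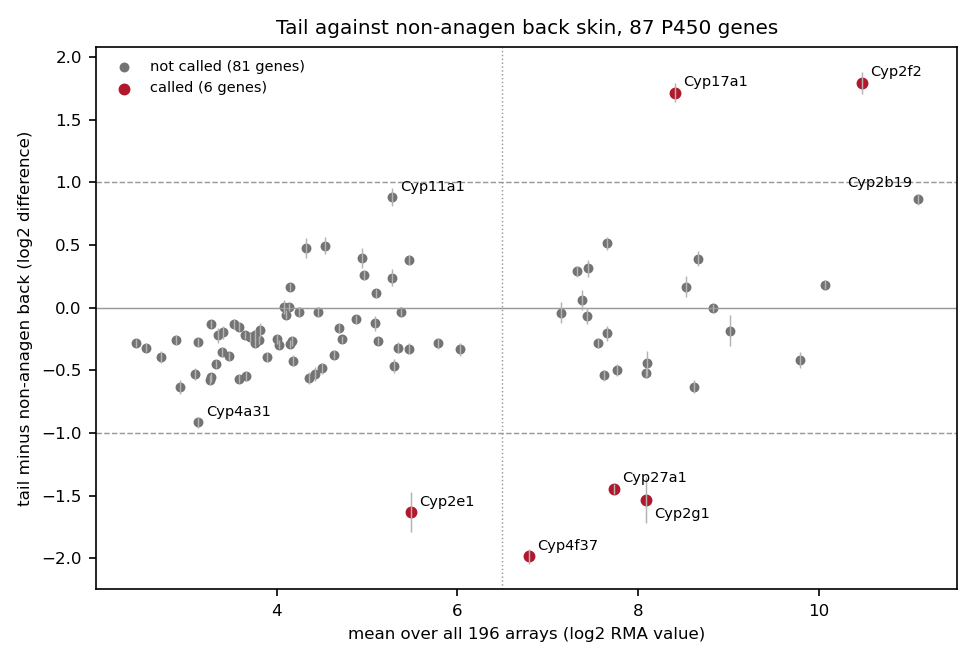
Each point is 1 of the 87 P450 genes, with its mean over all arrays (log2 RMA value) on the horizontal axis and its tail minus non-anagen back difference (log2, bars are SE) on the vertical axis. The 6 called genes are red, dashed lines mark a difference of 1 in either direction, and the dotted line is the median of all gene means, 6.49. Below that line most genes lie between 0 and -1.

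Cyp4f37 and Cyp2e1 were the other P450 genes called lower. Cyp4f37 (probe set 10443876, chromosome 17), a member of the fatty acid hydroxylase family, was at 4.79, 5.69 and 6.83 in tail and at 6.64, 7.79 and 8.87 in non-anagen back (lowest, median and highest). Of the back arrays 83 lay above every tail array. The difference was -1.99 (SE 0.06, adjusted p = 5.44e-74), the largest of any P450 gene. Cyp2e1 (probe set 10558673, chromosome 7), which oxidises ethanol and other small molecules, was at 3.72, 4.49 and 6.87 in tail and at 3.92, 5.75 and 10.84 in back. Its difference was -1.63 (SE 0.16, adjusted p = 7.67e-19), with 28 back arrays above every tail array.

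Skeletal muscle genes were lower in tail together with these genes. All 10 measured muscle markers were called lower, and their mean per array ranged from 4.79 to 9.33 in tail and from 4.96 to 11.53 in non-anagen back. White adipocyte markers had 0 of 11 called in either direction in limma's fit, with 4 higher and 3 lower at any size, and their mean ranged from 6.77 to 9.26 in tail and from 6.31 to 9.80 in back. Of 8 inner root sheath markers 7 were called higher, with a mean from 6.56 to 10.73 in tail and from 5.46 to 6.75 in back. Of 11 sebaceous gland markers 1 was called higher and 2 lower, and their mean ranged from 10.16 to 11.25 in tail and from 9.88 to 11.27 in back. The part of these tissues in the P450 differences was not tested.

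In the Cyp4 group, 1 of 15 genes was called, against 5.97% of all genes, and without a size limit 1 was higher and 11 lower, against 43.8% and 43.5%. The Cyp4 count was not split by the level of the genes. Cyp4f39, which hydroxylates the very long fatty acids of acylceramides, was the gene that was higher, by 0.18 (10.17 ± 0.22, SD, n = 97, in tail and 9.99 ± 0.29, SD, n = 85, in back; adjusted p = 1.5e-06). Of the 12 acylceramide genes measured beside it, 4 were called higher and 0 lower, and 10 were higher at any size. These were the retinol dehydrogenase relative Sdr9c7 (1.37), the acyltransferase Pnpla1 (1.35), the lipoxygenase Alox12b (1.13) and the fatty acid transporter Slc27a4 (1.13). Cyp4b1 was lower by a log2 difference of -0.63 (adjusted p = 8.68e-24), and Cyp4a31 differed by -0.92 (adjusted p = 4.45e-51) at means of 2.66 in tail and 3.58 in back.

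The retinoic acid hydroxylases differed from each other. Cyp26b1 was at 6.44, 7.37 and 8.01 in tail and at 7.08, 7.97 and 8.80 in non-anagen back, a difference of -0.54 (SE 0.04, adjusted p = 1.92e-27). Cyp26a1 was higher by 0.50 (4.78 ± 0.59, SD, n = 97, in tail and 4.28 ± 0.30, SD, n = 85, in back) and Cyp26c1 by 0.16. Among 16 retinoid pathway genes, 2 were called higher, the retinol-oxidising enzyme Dhrs9 (2.16) and the retinol transporter Stra6 (1.74). Another 2 were called lower, the retinal dehydrogenase Aldh1a1 (-1.28) and the receptor Rxrg (-1.27).

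Of the vitamin D enzymes, Cyp27b1, which activates the hormone, was higher by 0.26 (adjusted p = 4.38e-10). Cyp24a1, which degrades it, was lower (-0.27, adjusted p = 1.15e-12), as was Cyp2r1 (-0.33, adjusted p = 5.25e-10), which carries out the first activating step in liver. Of 5 other vitamin D genes, 0 were called in either direction in limma's fit and 2 were higher and 2 lower at any size.

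The Cyp1 genes, textbook targets of the aryl hydrocarbon receptor, moved in both directions by small amounts. Cyp1a1 was higher by 0.32 (SE 0.07, adjusted p = 8.88e-06) and Cyp1b1 by 0.39 (SE 0.06, adjusted p = 2.46e-09), while Cyp1a2 was lower (-0.48, adjusted p = 1.64e-22). Of 6 genes of the receptor's pathway, 0 were called in limma's fit, with 3 higher and 2 lower at any size. Ahr itself was lower (-0.36) and its repressor Ahrr too (-0.75), and Nqo1 was higher by 0.82. Cyp2s1, which in humans oxidises retinoids and foreign compounds, was higher by 0.51 (adjusted p = 3.15e-18).

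Counted at any size, 17 P450 genes were higher and 57 lower in tail. This count moved with the level of the genes. Of the 25 above the median level, 8 were higher and 11 lower, with a median difference of -0.07, where 65.6% of all genes above that level were higher and 23.0% lower. Of the 62 at or below it, 9 were higher and 46 lower (74.2%), where 64.1% of all such genes were lower. All 13 Cyp2c genes were among the 57, from -0.13 (Cyp2c68) to -0.63 (Cyp2c67), and so were 8 of 10 Cyp2d and 4 of 6 Cyp3a genes. The medians of the arrays averaged 6.57 in tail and 6.37 in non-anagen back, and after shifting every array to the same median 11 P450 genes were higher and 69 lower, with the median of all genes at -0.21. Under quantile normalization the counts were 22 higher and 42 lower, with the median of all genes at -0.026. All genes at any size were not counted under these settings.

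**Figure D2:**
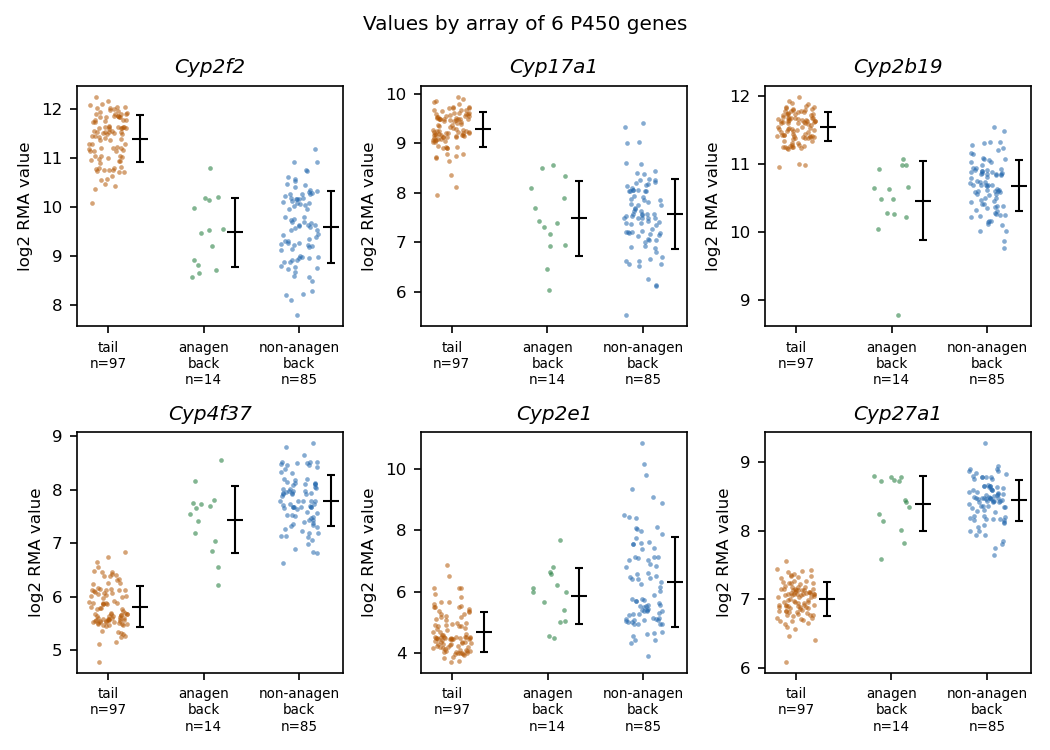
Points are arrays (log2 RMA value) of tail (97), anagen back (14) and non-anagen back (85), and black marks give mean and SD. Cyp2f2, Cyp17a1 and Cyp2b19 sit higher in tail, and Cyp4f37, Cyp2e1 and Cyp27a1 lower, while the 2 kinds of back skin overlap for all 6 genes.

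Tail skin was also set against anagen back, which has growing hair. This comparison shares its tail arrays with the previous one. Called higher were Cyp2f2 (1.92), Cyp17a1 (1.81) and Cyp2b19 (1.09), against 3.32% of all genes (5% in either direction), and called lower were Cyp2g1 (-2.02), Cyp4f37 (-1.63), Cyp27a1 (-1.40) and Cyp2e1 (-1.17), against 1.68% of all genes. Cyp27a1 was at 7.003 ± 0.246 (SD, n = 97) in tail and 8.399 ± 0.395 (SD, n = 14) in anagen back (SE of the difference 0.08, adjusted p = 7.53e-34). The adjusted p of these 7 genes ranged up to 5.27e-08, that of Cyp2e1. Cyp26b1 differed by -0.37 (adjusted p = 3.9e-06), Cyp4f39 by 0.40 (adjusted p = 3.55e-07) and Cyp1b1 by 0.46 (adjusted p = 0.000965). At any size 16 were higher and 47 lower, against 39.8% and 36% of all genes (75.9% in either direction). Above the median level 44% of P450 genes were higher and 32% lower, against 62.5% and 17.4% of all such genes. At or below it 8.06% were higher and 62.9% lower, against 17.1% and 54.7%. The counts of 16 and 47 became 17 and 31 under quantile normalization and 10 and 60 with equal array medians. All genes at any size were not counted under these settings. Leaving out the anagen array with the low sheath level left 3 genes called higher and 4 lower. After shifting arrays to the same median, 407 of all genes were called higher and 493 lower, where the unshifted counts were 625 and 316, and Cyp2b19 (0.90) fell short of the size limit.

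Between anagen and non-anagen back, P450 genes were called in either direction no more often than all genes. In limma's fit with sex and batch as covariates, 0 of 87 were called in either direction at 2-fold, against 0.68% of all genes higher and 0.00531% lower (0.685% in either direction). At any size 0 were higher and 5 lower, against 4.11% and 3.59% of all genes (7.7% in either direction). At an unadjusted p under 0.05 the P450 counts were 2 and 14, and all genes were not counted at that cut-off. The inner root sheath list, by comparison, had 7 of 8 genes called higher.

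The 5 genes lower in anagen back were the arachidonic acid epoxygenase relatives Cyp2j6 (-0.42, SE 0.09, adjusted p = 0.000878) and Cyp2j9 (-0.35, adjusted p = 0.00411), the phenobarbital-inducible Cyp2b10 (-0.33, adjusted p = 0.0457), Cyp2b9 (-0.28, adjusted p = 0.0388) and Cyp4b1 (-0.26, adjusted p = 0.0324). Cyp2j6 was at 7.13, 8.67 and 9.15 in anagen back and at 8.22, 8.87 and 9.56 in non-anagen back (lowest, median and highest). The anagen arrays thus ran lower at the bottom of their range and overlapped at the top. Without the anagen array with the low sheath level, 5 genes were again lower at any size.

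Other values in anagen against non-anagen back did not pass the test. Cyp2b23 differed by -0.55 (adjusted p = 0.294), Cyp2e1 by -0.48 (0.571), Cyp1a1 by -0.35 (0.177), Cyp4f39 by -0.23 (0.113), Cyp26b1 by -0.19 (0.287), Cyp1b1 by -0.08 (0.829) and Cyp24a1 by -0.03 (0.902), all adjusted p values of limma. Positive differences were 0.43 for Cyp2g1 (adjusted p = 0.637), 0.28 for Cyp2s1 (adjusted p = 0.157) and 0.19 for Cyp27b1 (adjusted p = 0.0866). The Cyp2g1 difference is pooled over sexes whose means moved in opposite directions. Its means in anagen and non-anagen back were 10.254 (n = 8) and 11.002 (n = 41) in females. In males they were 8.535 (n = 6) and 6.684 (n = 44). Whether the Cyp2g1 change differed between the sexes was not tested. Tails of the 14 mice with anagen backs were set against tails of the 82 with non-anagen backs. No gene of 18820, P450 or other, passed in limma's fit there. At an unadjusted p under 0.05, 0 P450 genes were higher and 2 lower, Cyp2e1 (-0.36) and Cyp1b1 (-0.25), with all genes not counted.

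Sex divided several P450 genes, Cyp2g1 most of all. In non-anagen back, Cyp2g1 was at 6.94, 11.33 and 12.81 in females and at 4.24, 6.53 and 11.11 in males (lowest, median and highest). Of the 41 females 27 lay above every male, and 28 of the 44 males lay below every female. The fold was 20.4 (log2 difference 4.35, SE 0.29, adjusted p = 1.83e-22). In tail it was at 5.41, 9.01 and 11.08 in females and at 4.16, 5.48 and 7.78 in males, with 41 of 48 females above every male. The tail fold was 7.84 (log2 difference 2.97, SE 0.21, adjusted p = 1.15e-21).

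The sex difference of Cyp2g1 was smaller in tail than in back by 1.38 in size (interaction -1.38, SE 0.36, adjusted p = 0.00658). In anagen back, where sexes were not tested, Cyp2g1 averaged 10.25 ± 1.21 in 8 females and 8.54 ± 1.91 in 6 males (SD).

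In non-anagen back at an adjusted p under 0.05, 5 P450 genes were higher in females, against 6.19% of all genes, and 5 were lower, against 6.11% (12.3% in either direction). In batch 1 alone the differences were 4.18 for Cyp2g1, -1.67 for Cyp2b23 and 0.80 for Cyp17a1. Besides Cyp2g1, the genes higher were Cyp17a1 (0.80, SE 0.13, adjusted p = 1.31e-06), Cyp2d40 (0.25), Cyp26b1 (0.22, adjusted p = 0.024) and Cyp2d37-ps (0.14), a pseudogene. Lower were Cyp2b23 (-1.65), Cyp2j12 (-0.70, SE 0.16, adjusted p = 0.00108), Cyp2b10 (-0.29), Cyp20a1 (-0.25) and Cyp2b9 (-0.21). Cyp2b9 lost its call with equal array medians (-0.20, limma's adjusted p = 0.0652), and Cyp2d37-ps in batch 1 alone (0.14, limma's adjusted p = 0.0763).

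Cyp2b23 (probe set 10561153) ran opposite to Cyp2g1, from which a single P450 gene, Cyp2b19, separates it in the cluster. In non-anagen back it was at 5.80, 8.39 and 10.36 in females and at 8.18, 10.05 and 11.35 in males. Of the females 16 lay below every male, and 16 males lay above every female. The difference was -1.65 (SE 0.21, adjusted p = 3.15e-09). In tail it was at 6.96, 8.79 and 9.85 in females and at 8.23, 9.10 and 10.24 in males (-0.32, adjusted p = 0.0841), and the interaction was 1.33 (SE 0.23, adjusted p = 1.43e-05). In anagen back it averaged 7.63 ± 1.58 in 8 females and 9.70 ± 0.93 in 6 males (SD, not tested).

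Sebaceous gland markers were also lower in female non-anagen back. Of 11 measured, 5 were lower, led by Elovl3 (-0.99) and Scd3 (-0.62), and 1 was higher. Their mean per array ranged from 9.91 to 11.19 in females and from 9.88 to 11.27 in males. All 7 endothelium markers were lower too, with a mean from 6.02 to 8.30 in females and from 6.78 to 8.28 in males, and so were 3 of 6 fibroblast markers, with a mean from 8.36 to 10.82 in females and from 8.97 to 11.37 in males. The part of gland, vessel or fibroblast content in the P450 differences was not tested.

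Cyp17a1 differed between the sexes in back and not detectably in tail. Its values in non-anagen back were 6.55, 8.04 and 9.41 in females and 5.52, 7.22 and 8.37 in males (lowest, median and highest). In tail they were 8.11, 9.30 and 9.88 in females and 7.95, 9.27 and 9.93 in males, a difference of 0.01 (SE 0.07, adjusted p = 0.973). The interaction was -0.80 (SE 0.14, adjusted p = 2.7e-05). In each sex the tail median lay above the back median.

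In tail, 2 P450 genes were higher in females, against 1.64% of all genes, and 3 were lower, against 1.2% (2.84% in either direction). Cyp2a5, the coumarin and nicotine oxidase of mouse liver, was higher by 0.73 (SE 0.11, adjusted p = 1.8e-06). It was at 3.77, 4.79 and 6.81 in females and at 3.66, 4.24 and 4.67 in males, so 27 of 48 females lay above every male. In non-anagen back its difference was 0.16 (adjusted p = 0.38), and the interaction was 0.57 (SE 0.16, adjusted p = 0.0117). The genes lower in female tail were Cyp2j12 (-0.34, adjusted p = 0.00397), Cyp1a1 (-0.30, adjusted p = 0.0214) and Cyp4f39 (-0.17, adjusted p = 0.00898).

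White adipocyte and fibroblast markers moved with sex in tail. Of 11 measured, 7 were higher in females and 0 lower in limma's fit, and their mean ranged from 6.87 to 9.26 in females and from 6.77 to 8.69 in males. Of 6 fibroblast markers 3 were lower, with a mean from 9.63 to 10.75 in females and from 9.83 to 10.99 in males. Of the macrophage and hepatocyte markers 1 each was higher, and of the sebaceous gland markers 1 was higher and 1 lower. The part of these cell types in the tail differences was not tested.

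**Figure D3:**
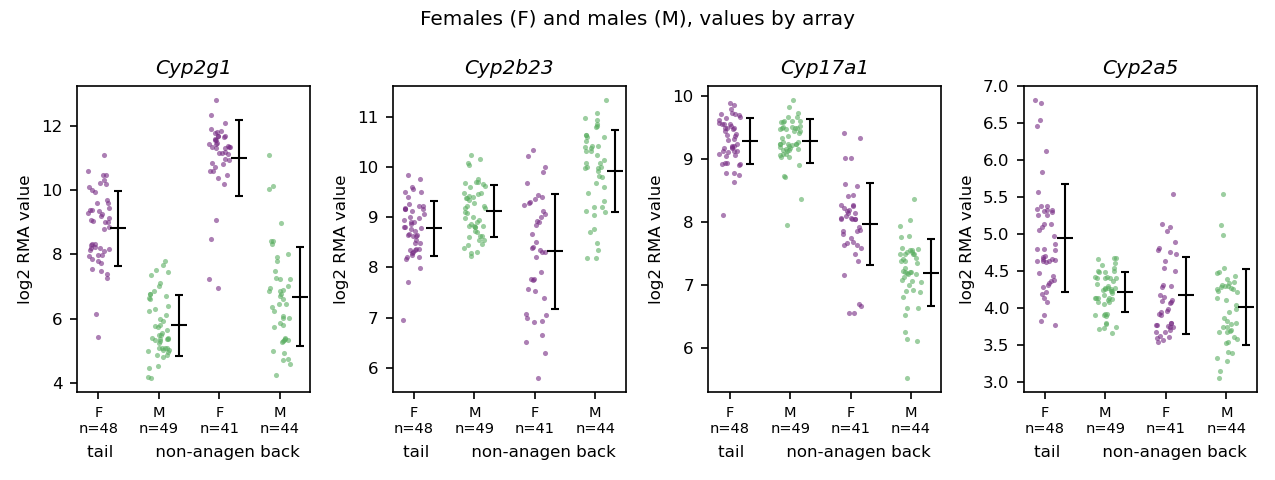
Points are arrays (log2 RMA value) of females (F) and males (M) in tail (48 and 49) and non-anagen back (41 and 44), with mean and SD in black. Cyp2g1 separates the sexes at both sites, Cyp2b23 and Cyp17a1 mainly in back, and Cyp2a5 in tail.

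The following differences did not pass at the site given, although Cyp1a1, Cyp4f39 and Cyp26b1 passed at the other. In non-anagen back the female minus male differences were 0.35 for Cyp2e1 (adjusted p = 0.511), 0.12 for Cyp24a1 (0.139), 0.10 for Cyp4b1 (0.259), 0.04 for Cyp27b1 (0.668), 0.03 for Cyp1b1 (0.888), -0.03 for Cyp2s1 (0.88), -0.08 for Cyp1a1 (0.702) and -0.15 for Cyp4f39 (0.0974), as limma's adjusted p. In tail they were 0.13 for Cyp2s1 (0.242), 0.12 for Cyp2e1 (0.687), 0.04 for Cyp27b1 (0.757), -0.01 for Cyp24a1 (0.934), -0.01 for Cyp1b1 (0.96), -0.06 for Cyp26b1 (0.549) and -0.24 for Cyp4b1 (0.104). In all, the interaction passed for 3 P450 genes with a more positive effect in tail, against 4.46% of all genes, and for 4 with a more negative effect, against 4.63% (9.09% in either direction).

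Tail and back skin of a mouse shared part of their P450 variation. After removal of sex and batch means from each tissue, the tail and non-anagen back values of 82 mice were correlated (Pearson's r). Of 87 P450 genes, 14 were positively correlated (16.1%) and 0 negatively at a permutation p adjusted over 18820 genes, against 8.93% of all genes positive. At an unadjusted permutation p under 0.05, 22 were positive and 1 was negative, with all genes not counted at that cut-off. The median r was 0.129 over P450 genes and 0.081 over all genes, which share the mice and arrays.

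Cyp1b1, which oxidises steroid and polycyclic substrates, had the highest value. Its r was 0.60 and Spearman's rho 0.651 (permutation p = 1e-05 each, the smallest that 100000 permutations can give, two-sided; adjusted p = 0.000417). Without the 2 mice farthest from the median back value r was 0.563. Within sexes r was 0.699 in 39 females and 0.485 in 43 males.

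Next were Cyp17a1 (r = 0.592, rho = 0.547), Cyp4f16 (r = 0.525, rho = 0.550), Cyp3a57 (r = 0.496, rho = 0.506), Cyp4f13 (r = 0.482, rho = 0.466) and Cyp3a13 (r = 0.468, rho = 0.483). Their adjusted permutation p values were 0.000417, and 0.000712 for Cyp3a57. Without the 2 farthest mice r stayed between 0.457 (Cyp4f13) and 0.529 (Cyp3a57). In the 72 mice of back batch 1 and tail batch 4, r was between 0.430 (Cyp4f13) and 0.629 (Cyp17a1). Cyp2b19 (r = 0.431), Cyp2j5 (0.418), Cyp2j9 (0.413), Cyp26b1 (0.394), Cyp2g1 (0.391), Cyp2w1 (0.382), Cyp2u1 (0.360) and Cyp2j12 (0.316) completed the 14. Within sexes r of Cyp2w1 was 0.155 in females and 0.573 in males, and r of Cyp2u1 was 0.488 and 0.187. For the rest of the 14 it was at least 0.273 in each sex, the value of Cyp2j12 in females. Whether r differed between the sexes was not tested.

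Large variation in back was not always shared with tail. Cyp2b23 had an adjusted SD of 0.99 in back and 0.55 in tail, and r was -0.01 (permutation p = 0.919, rho = 0.01). Cyp2e1 had an SD of 1.48 in back and 0.67 in tail, and r was 0.116 (permutation p = 0.301). The barrier gene Cyp4f39 had r = 0.026 (permutation p = 0.814), Cyp24a1 -0.002 (permutation p = 0.984), Cyp2s1 -0.058 (permutation p = 0.601), Cyp1a1 0.146 (permutation p = 0.193), Cyp4b1 0.169 (permutation p = 0.127) and Cyp27b1 -0.146 (permutation p = 0.19). No pooled r is given for Cyp8b1, Cyp2a12, Cyp4a12a, Cyp7a1, Cyp3a11, Cyp2c29, Cyp2c39, Cyp2c54, Cyp2c55 and Cyp2c70. Their values in tail or back met the rule for separate clusters. They were kept in the counts and in the median r above.

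**Figure D4:**
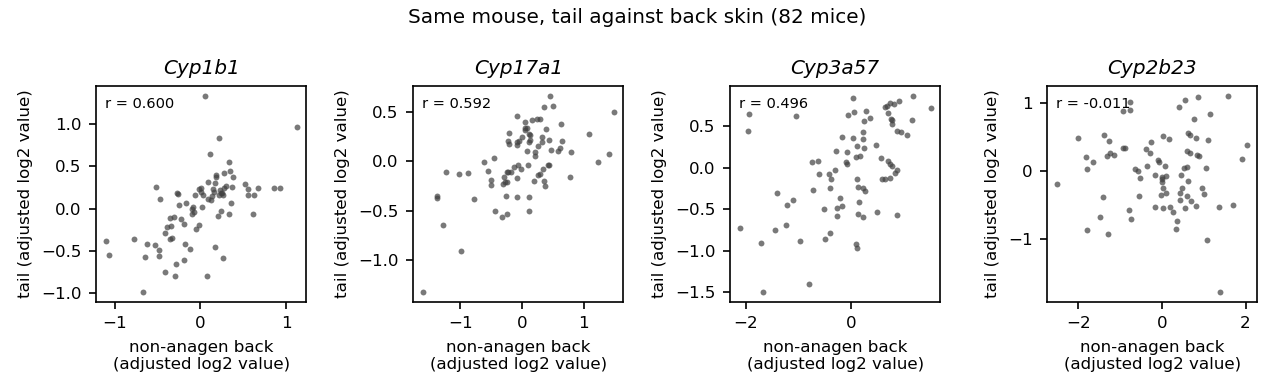
Each point is 1 of 82 mice, with its non-anagen back value on the horizontal and its tail value on the vertical axis (log2, adjusted for sex and batch within tissue). Cyp1b1, Cyp17a1 and Cyp3a57 rise together in both tissues (r = 0.60, 0.592 and 0.496), and Cyp2b23 shows no such relation (r = -0.011).

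Within non-anagen back, the P450 genes with the largest SD after adjustment for sex and batch, among those above the median level, were Cyp2g1 (1.38), Cyp2b23 (0.99) and Cyp3a57 (0.81). All other genes were correlated with each of them over 85 arrays. Cyp2e1 (SD 1.48, below the median level) was added after its values were seen. Such correlations share arrays and tissue content, and no p was taken over the P450 list alone.

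Cyp2b23 and Cyp3a57 varied with Cyp2j12 and with each other. With Cyp2b23, 10 of 86 other P450 genes were positively and 0 negatively correlated (11.6%), against 20.2% of all genes in either direction. At an unadjusted permutation p under 0.05 the P450 counts were 13 and 3, with all genes not counted at that cut-off. By a limma regression the counts were 9 and 1. The closest were Cyp2j12 (r = 0.655, rho = 0.684), Cyp2b10 (r = 0.526, rho = 0.553), Cyp3a25 (r = 0.498, rho = 0.498), Cyp3a57 (r = 0.498, rho = 0.506), each at the smallest permutation p of 1e-05 (adjusted p = 0.00039), and Cyp20a1 (r = 0.457, rho = 0.448, adjusted p = 0.000594). Without the 2 arrays farthest from the median of Cyp2b23, these r were 0.646, 0.505, 0.470, 0.478 and 0.423. The nearest of all genes above the median level were Sec14l4 (0.793), a lipid-binding protein, the wax synthase Awat1 (0.748) and Dgat1 (0.742), which makes triglycerides.

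With Cyp3a57, a member of the steroid- and drug-oxidising Cyp3a family, 14 of 86 were positive and 4 negative (20.9%), against 23.9% of all genes. Closest were Cyp2j12 (r = 0.756, rho = 0.707), Cyp3a25 (r = 0.752, rho = 0.753), Cyp1a1 (r = 0.678, rho = 0.557), Cyp20a1 (r = 0.550, rho = 0.459) and Cyp2b23 (r = 0.498, rho = 0.506). All were at the smallest permutation p of 1e-05 (adjusted p = 0.000263), and without the 2 farthest arrays r was 0.714, 0.757, 0.620, 0.506 and 0.456. Cyp3a13, another Cyp3a gene, ran the other way (r = -0.520, rho = -0.533, adjusted p = 0.000263). Of these genes, Cyp3a57, Cyp2j12, Cyp1a1 and Cyp2b23 have their upstream windows printed above, and Cyp3a25, Cyp20a1 and Cyp3a13 do not. The closest non-P450 genes were Dhrs7 (0.743), a short-chain dehydrogenase, and Echdc1 (0.737).

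Sebaceous gland markers went with both. Of 11, 6 were positively and 1 negatively correlated with Cyp2b23, and 7 and 1 with Cyp3a57. All 5 keratinocyte markers were negative with Cyp2b23 and 4 with Cyp3a57, while 4 and 6 of 6 fibroblast markers and 5 and 6 of 6 macrophage markers were positive with Cyp2b23 and Cyp3a57. Of 7 endothelium markers 4 were positive with Cyp2b23 and 5 with Cyp3a57, and of 11 white adipocyte markers 0 with Cyp2b23 and 4 with Cyp3a57. The part of tissue content in these correlations was not tested.

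Cyp2e1 followed markers of fat, endothelium, muscle, macrophages and fibroblasts. All 11 white adipocyte (median r = 0.713), all 7 endothelium (0.664) and all 10 muscle markers (0.633) were positively correlated. So were all 6 macrophage (0.500) and all 6 fibroblast markers (0.486), while all 5 keratinocyte markers were negatively correlated (-0.503). Their part in the correlations of Cyp2e1 was not tested. Of 86 P450 genes 9 were positive and 9 negative (20.9%), against 26.2% of all genes. Positive were Cyp7b1, an oxysterol hydroxylase (r = 0.631, rho = 0.619, adjusted p = 0.00016; 0.602 without the 2 farthest arrays) and Cyp2f2 (r = 0.560, rho = 0.566, adjusted p = 0.00016; 0.550 without them). Negative were Cyp2s1 (r = -0.475, rho = -0.415, adjusted p = 0.000282) and Cyp4f39 (r = -0.420, rho = -0.342, adjusted p = 0.000585), which became -0.381 and -0.380 without them. Nearest of all genes were transferrin, Trf (0.825), the Wnt receptor Fzd4 (0.783) and the lipid droplet protein Cidec (0.778).

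Few genes were called with Cyp2g1. At an unadjusted permutation p under 0.05, 8 P450 genes were positive and 1 negative, with all genes not counted at that cut-off. No P450 gene and none of the 18819 other genes passed by permutation after adjustment, and 3 of all genes sat at the smallest possible p. That p gave an adjusted value of 0.0627 here, so the permutations could not have called a gene. By limma's regression 3 genes passed (0.0159%), none a P450 gene. They were the carnosine synthase Carns1 (slope 0.33 per log2 unit of Cyp2g1, adjusted p = 3.69e-05), the steroid dehydrogenase Hsd3b6 (slope 0.26, adjusted p = 0.00649) and the protease inhibitor Slpi (slope -0.16, adjusted p = 0.0456). Hsd3b6 was the single gene of the 10 sex steroid genes to pass, and no other related or marker list held a gene that passed this regression.

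**Figure D5:**
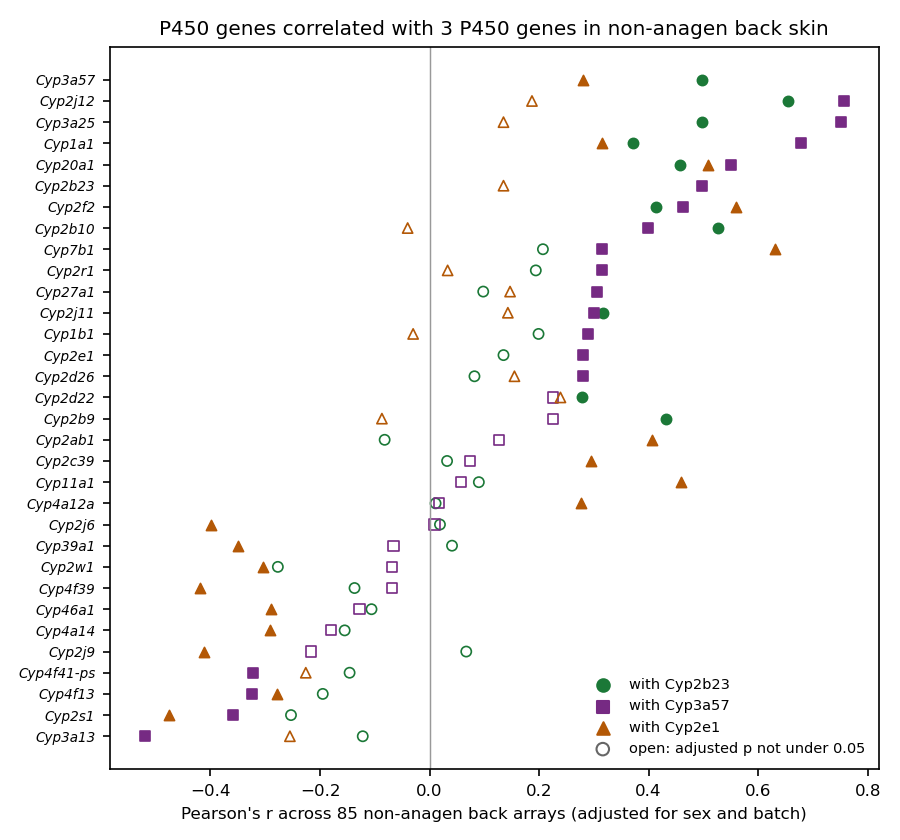
Pearson's r of P450 genes with Cyp2b23 (circles), Cyp3a57 (squares) and Cyp2e1 (triangles) over 85 non-anagen back arrays, adjusted for sex and batch. Filled symbols passed at an adjusted permutation p under 0.05, and genes that passed with at least 1 of the 3 are shown. Cyp2j12, Cyp3a25 and Cyp1a1 lie farthest right for Cyp3a57 (0.756, 0.752 and 0.678), and Cyp3a13 farthest left (-0.520).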

How the data were processed

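The deposited table holds log2 values per probe set made by the authors with RMA (background correction, quantile normalization and probe summary), per the submitters' processing notes. The version is not given in the sources used here. Of 35556 probe sets, 21218 named 1 gene, and the one with the highest mean was kept for each of the 1386 genes with several. Differences were fitted over all 18820 genes with limma 3.58.1 (lmFit, eBayes) in R 4.3.3, and p-values were adjusted by Benjamini-Hochberg. Correlations used 100000 permutations, two-sided, in Python 3.11.15 with numpy 2.4.6. A gene had separate clusters where a split of at least 4 pooled SDs left at least 6 mice on each side. The mouse number marks tail and back of the same animal. Deviations of a mouse's 2 arrays from the group means correlated with a median of 0.166 (82 mice, 61 above 0.1), against -0.001 for other mice. Sex was not removed here, and a mouse's 2 arrays share it while other pairs mix it. The contrast is therefore not a test of the pairing alone. For 23 of the 82 tails the closest back array was the mouse's own. Tests ran on simulated data with 100 genes changed by 0.8 and 100 by 1.5. At an adjusted p under 0.05 without the size limit, 98% to 100% were recovered in each comparison. This does not cover calls that also need a log2 difference of at least 1. The simulated noise was independent between arrays, without mouse pairing, batch or shared tissue content. The number of arrays limits the precision. The genes, lists, named genes and correlated members were chosen with earlier results of these data known. Named in each comparison were the called members with the largest differences, 11 set genes, and up to 4 called genes of each related list. Alternatives were equal array medians, quantile normalization, a filter on low values, the mean of all probe sets, the mouse as a block, single batches and single sexes, and the leaving out of 1 anagen array, chosen after seeing the data.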

Additional observations from a re-analysis of the deposited data

Results flagged for a closer look

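The sex effect of 7 P450 genes differed between tail and non-anagen back in a test of the difference itself (limma interaction, adjusted over all 18820 genes). Of all genes 9.09% passed this test. The interaction was -1.378 for Cyp2g1 (SE 0.361, adjusted p = 0.00658), 1.329 for Cyp2b23 (SE 0.231, adjusted p = 1.43e-05), -0.795 for Cyp17a1 (SE 0.143, adjusted p = 2.7e-05) and 0.573 for Cyp2a5 (SE 0.16, adjusted p = 0.0117). Cyp7b1 stood at 0.446 (SE 0.135, adjusted p = 0.0219), with female minus male differences of 0.14 in tail and -0.31 in back. Cyp4b1 stood at -0.336 (SE 0.104, adjusted p = 0.025), with -0.24 in tail and 0.10 in back, and Cyp26b1 at -0.278 (SE 0.081, adjusted p = 0.0163), with -0.06 in tail and 0.22 in back. All 7 endothelium markers and 4 of 6 fibroblast markers had a positive interaction as well, and their part in these results was not tested.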

How the results depend on the processing

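Counts of called or correlated members were recomputed under other settings: 88 stayed within 1.5 times of the reported ones and 11 did not. No called difference or correlation reversed, while some tissue correlations that had not passed changed sign, such as Cyp4b1 (-0.056 in females). Under quantile normalization 8 P450 genes were lower in female non-anagen back, and 1289 of all genes against 1149 in the main fit. Then 7 P450 interactions were negative, and 1106 of all genes against 872 in the main fit. With the filter on low values 1 P450 gene was higher in female tail and 1 interaction was positive, since fewer genes were tested. Of all genes kept, 175 of 9666 and 698 of 9967 did so. Between tissues, 5 P450 genes (5.75%) were positively correlated in females alone and 5 in males alone. Of all genes 3.13% were positive in females and 3.46% in males, against 8.93% in both sexes together. With Cyp2b23, 7 were positively and 1 negatively correlated in the 41 female arrays, and 3 positively in the 44 male arrays. Of all genes 14.2% passed with it in females and 1.75% in males. With Cyp3a57 the counts were 10 in females and 5 in males, against 13.3% and 4.04% of all genes. With Cyp2e1 they were 5 in females and 11 in males, against 12% and 13.1%. The reason for the differences between the sexes was not tested. Of single genes, 23 values lost the threshold and 3 gained it. Cyp4a31 passed the size limit in tail once array medians were equalised (-1.121, and -1.177 against anagen back). That shift gave 388 genes higher and 445 lower in female tail, against 309 and 225 without it, and interactions of 811 and 1381, against 839 and 872. The filter gave 175 genes higher and 237 lower in female tail, and batch 1 alone gave 774 higher and 938 lower in female non-anagen back, against 1165 and 1149. With the replicate block by mouse, 2 P450 genes were higher and 4 lower in tail than in non-anagen back, 3 and 4 against anagen back, and 3 interactions were positive and 5 negative. The counts over all genes with the block were 741 and 380, 626 and 315, and 965 and 1078. Counts without a size limit moved more, and under the other settings they were made for P450 genes only. In tail against non-anagen back they were 11 higher and 69 lower with equal array medians, against 17 and 57, and against anagen back 10 and 60 (17 and 31 under quantile normalization), against 16 and 47. Differences within each of the 14 mice with anagen backs gave 11 and 28. The number of arrays limits the precision, least favourably for the 14 of anagen back.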
